A study of Mus musculus with 8 samples.

Results

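The 10 genes described here encode heat shock proteins and small chaperones: Hsp90aa1, Hsp90ab1, Hsp90b1, Hspa4, Hspa5, Hspa8, Hspb1, Hspb2, Hspb7 and Cryab. They were chosen by gene symbol as the array design gives it, and all 16 probes that carry 1 of these symbols were read, of 55681 probes and 22594 named genes on each array. The transcripts were measured in 8 single cells of the mouse heart tube at embryonic day 8.5 (9 somites), which the labels assign to the myocardium, with 1 array of 60-base probes per cell. In 4 wild-type cells (WT) the genotype was Mesp1+/+_Sox17flox/flox. In 4 knockout cells (KO) it was Mesp1Cre/+_Sox17flox/flox, so that both groups carried the floxed Sox17 alleles and KO cells carried in addition a Cre recombinase in place of 1 Mesp1 allele, which is active in early mesoderm. SOX17 is a transcription factor known from the endoderm and from blood vessel precursors, and the comparison asks whether its deletion in mesoderm alters the transcripts of heart muscle cells.

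Since the labels do not say which embryo a cell came from, the 4 cells of a genotype count as 1 sample, no test between genotypes was made, and each SD is the spread between cells. The WT arrays shared 1 slide and the KO arrays a different one, and an effect of the slide cannot be told apart from one of the genotype. Signals are given on a linear scale after scaling of the arrays, with values under 50 set to a floor of 50, and differences are KO minus WT means on the log2 scale. Detected means that the scanner software marked the signal as well above background. Both Sox17 probes were undetected in 8 of 8 cells, so the deletion could not be checked here. All 10 myocardial markers were detected in every cell, while 0 of 7 erythroid markers were detected in any cell. Above the floor were 9 of the 10 myocardial markers in WT cell 1 and all 10 in each other cell. A WT cell had 3 to 5 and a KO cell 2 to 4 of 13 endothelial markers detected, and 1 to 2 per cell lay above the floor. Of 5 proepicardial markers 1 lay above the floor in each of WT cells 2 and 3, and none did in the other cells. No foregut endoderm or neural crest marker lay above the floor in any cell. Some markers were detected without lying above it. These were 1 proepicardial marker in each of WT cell 1 and KO cell 1, and 1 foregut endoderm marker in WT cell 1. The same held for 1 neural crest marker in each of WT cells 3 and 4 and KO cells 1 and 2. The share of probes detected was 19.6% to 26.0% in WT and 17.2% to 24.3% in KO cells.

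Chaperones bind unfolded or newly made proteins and keep them from aggregating. HSP70 proteins, which include HSPA8 in the cytosol and HSPA5 in the endoplasmic reticulum (ER), bind and release short stretches of unfolded chain in a cycle driven by ATP. J-domain proteins deliver substrates and start ATP hydrolysis, and nucleotide exchange factors, among them HSPA4 of the HSP110 family, reset the cycle. HSP90 proteins act later on nearly folded clients such as kinases and steroid receptors. Small heat shock proteins hold unfolded proteins without ATP, and several of them, CRYAB, HSPB1, HSPB2 and HSPB7, are abundant in heart and skeletal muscle, where they associate with the cytoskeleton and the sarcomere. Heat shock factors switch on many of these genes in stressed cells, and the unfolded protein response switches on those of the ER.

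Sequences are shown where they bear on how the measurements can be read. The first 3 are probes of Hspa8 and Cryab, each named with the first base of the probe in its transcript. They belong to genes that were read by several probes, and they are taken from the array files, in small letters throughout because no part of a probe is singled out.
Hspa8 probe from base 730: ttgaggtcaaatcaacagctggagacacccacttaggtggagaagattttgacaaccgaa
Hspa8 probe from base 1812: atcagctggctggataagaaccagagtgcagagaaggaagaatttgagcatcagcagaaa
Cryab probe from base 524: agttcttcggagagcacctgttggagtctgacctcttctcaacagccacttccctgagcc

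The next 3 are the 250 bases before the annotated start of Hspa5, Hsp90b1 and Hspb1, from RefSeq (GRCm38.p6), each on the strand of its gene. Such promoter sequences were found for 5 of the 10 genes (these 3, Hspa4 and Hspb7). In the first pair, capitals mark the ER stress response element (CCAAT and CCACG with 9 bases between them), a site used in the unfolded protein response. In the last, capitals mark GAANNTTC, the paired inverted repeat bound by heat shock factors. Both motifs were searched on both strands.
Hspa5, chr2:34771840-34772089, plus strand: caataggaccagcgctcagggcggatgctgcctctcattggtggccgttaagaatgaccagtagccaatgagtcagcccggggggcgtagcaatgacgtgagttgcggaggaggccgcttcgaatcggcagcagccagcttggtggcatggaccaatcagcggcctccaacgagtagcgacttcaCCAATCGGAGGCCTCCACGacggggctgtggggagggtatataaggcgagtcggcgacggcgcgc
Hsp90b1, chr10:86705445-86705694, minus strand: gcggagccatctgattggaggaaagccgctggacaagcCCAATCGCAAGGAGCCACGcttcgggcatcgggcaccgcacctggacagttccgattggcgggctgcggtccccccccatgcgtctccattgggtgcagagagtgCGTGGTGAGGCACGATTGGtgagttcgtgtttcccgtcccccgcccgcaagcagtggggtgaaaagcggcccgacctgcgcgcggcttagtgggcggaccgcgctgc
Hspb1, chr5:135887669-135887918, plus strand: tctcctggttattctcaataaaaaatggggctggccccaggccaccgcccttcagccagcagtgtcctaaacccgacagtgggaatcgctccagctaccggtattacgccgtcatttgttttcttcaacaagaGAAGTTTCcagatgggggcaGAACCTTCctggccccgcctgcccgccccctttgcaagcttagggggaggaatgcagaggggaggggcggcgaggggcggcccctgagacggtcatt

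Counted from the annotated start, the ER stress response element began at base -65 of Hspa5 and at bases -212 and -107 of Hsp90b1, the nearer copy on the opposite strand. Of 32851 RefSeq promoter windows of the same length, 0.113% held this element. GAANNTTC began at bases -117 and -97 of Hspb1. It was held by 6.69% of windows, and 0.228% held it at least 2 times. The other arrangement of this repeat, TTCNNGAA, was also searched. It was held by 7.17% of windows, but not by those of Hspa5, Hsp90b1, Hspb1, Hspa4 or Hspb7. The windows of Hspa4 and Hspb7 contained none of these motifs. A match describes the letters of the window and not the use of a site in these cells.

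As a group, the 10 genes were not shifted in 1 direction between the genotypes. All 10 were measured, which means well above background in at least 4 of 8 cells, and all 10 were also above the floor in at least 4. The KO mean was lower for 6 and higher for 4, with a median difference of -0.19 and a mean of -0.45. The median was 0.00 over all 5171 measured genes, of which 464 lay at the floor in every cell. It was -0.10 over the 3503 measured genes above the floor in at least 4 cells. Hspa4 alone was at least 5-fold lower in KO (10.8% of measured genes, or 13.4% of those above the floor), and 0 were 5-fold higher (2.84%, or 3.68%). By a 2-fold rule 3 genes were lower, Hspa4, Hspa5 and Hspa8 (26.6% of measured genes, or 31.3% of those above the floor), and Hspb1 was higher (13.6%, or 15.8%). Among the 7 genes detected in all 8 cells 0 were 5-fold apart, beside 2.99% of such genes lower and 1.57% higher. In none of the 10 did the WT and KO cells fall into ranges that do not overlap, which 3.71% of measured genes did (5.48% of those above the floor). For 8 genes the difference was smaller than the pooled SD between cells, the exceptions being Hspa8 and Hspa4.

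**Figure D1:**
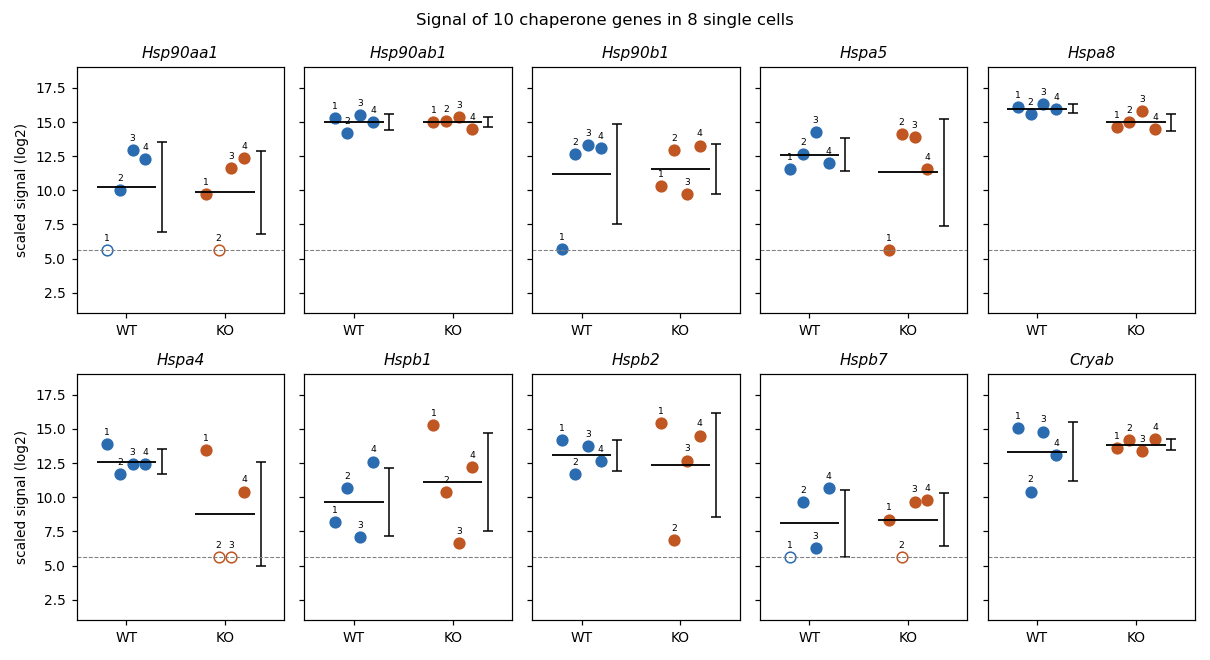
Scaled signal (log2) of the 10 chaperone genes in 4 WT (blue) and 4 KO (orange) cells, numbered by replicate. Filled points were well above background and open points were not; the dashed line is the floor of 50, the horizontal bars are means and the brackets are 1 SD between cells. Hsp90ab1 and Hspa8 are tightly grouped, and the WT and KO points overlap in each gene.

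The cytosolic HSP90 genes differed from each other in how steadily they were read. Hsp90ab1, the constitutive isoform, gave signals of 39413, 18682, 47711 and 32216 in the WT cells, in order of their number here and throughout. The KO cells gave 33165, 34346, 42766 and 23096. The KO range lay entirely inside the WT range, and the means were 14.99 ± 0.58 and 14.99 ± 0.37 (log2, SD, n = 4 cells each), a difference of -0.00. Its probe lies on chromosome 17 at 45704788 to 45704847, minus strand (mm9, the build of the array design).

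Hsp90aa1, the stress-inducible isoform, was undetected in 1 cell of each genotype. Its WT signals, in order of cell number, were 50 (undetected), 1048, 7801 and 4977. Its KO signals were 854, 50 (undetected), 3147 and 5354. Each genotype thus ran from the floor to a bright signal, and the difference of -0.37 (10.22 ± 3.29 against 9.85 ± 3.01) was small beside the SDs. With the cell at the floor left out, it was -1.90 (WT cell 1) or 1.03 (KO cell 2). This probe lies on chromosome 12 at 111929248 to 111929307, minus strand (mm9). Another probe with this symbol, designed from an expressed sequence tag and without a position, was undetected in 8 of 8 cells.

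The ER chaperones each had 1 cell far below the rest. Hsp90b1 encodes the HSP90 of the ER lumen (GRP94, chromosome 10, 86153770 to 86153829, minus strand, mm9). Its signals were 51.4, 6371, 10130.1 and 8819 in WT cells and 1250, 8061, 837 and 9929 in KO cells. Of the WT cells only cell 1 was low, near the floor yet well above background, while KO cells 1 and 3 were far below KO cells 2 and 4, which lay within the range of WT cells 2 to 4. The difference was 0.38 (11.18 ± 3.68 against 11.56 ± 1.83), and it turned to -1.45 without WT cell 1, to -1.24 with medians of the cells in place of means and to -0.02 under scaling over all probes or quantile normalization.

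Hspa5 encodes the main HSP70 of the ER (BiP) and binds unfolded chains and the stress sensors of that compartment. Its signals were 2954, 6584, 19667 and 4158 in WT cells and 50, 18057, 15148 and 3024 in KO cells. KO cell 1 was at the floor although its spot was marked well above background, and the other 3 KO cells lay within the range of the WT cells. The difference of -1.32 (12.62 ± 1.19 against 11.31 ± 3.95) therefore rested on that cell, since it became 0.57 without it. The probe lies on chromosome 2 at 34631913 to 34631972, plus strand (mm9). Hspa5 and Hsp90b1, the genes with the ER stress response element shown above, had their lowest values in different cells, Hspa5 in KO cell 1 and Hsp90b1 in WT cell 1, although KO cell 1 was also low for Hsp90b1 and WT cell 1 was the lowest WT cell for both. Their correlation across the 8 cells was 0.27, a value that describes these cells and shares their arrays and depth.

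Hspa8, the constitutive HSP70 of the cytosol (HSC70), was lower in KO whichever cell was left out. Its signals were 70265, 49040.0, 81798 and 63339 in the WT cells. They were 25272, 32247, 58314 and 23021 in the KO cells. KO cells 1, 2 and 4 lay below all WT cells, and KO cell 3 lay above WT cell 2, so that the ranges overlapped through a single KO cell. The means were 15.99 ± 0.31 and 14.98 ± 0.60, a 2.01-fold higher signal in WT (difference -1.01). Leaving out 1 cell at a time kept the difference between -1.29 and -0.84.

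The 3 Hspa8 probes all gave a lower KO mean. The probe from base 1812 gave 27415, 20769.6, 41526 and 28107 in WT cells and 8059, 10597, 25537 and 9697 in KO cells, a difference of -1.24. It followed the probe from base 2044, whose values are those above, with a correlation of 0.98 across the 8 cells and an SD of the log2 ratio of 0.23. The probe from base 730 gave 78.2, 560, 412 and 391.0 in WT cells and 50, 54.7, 253 and 473 in KO cells, a difference of -1.11. On this last probe KO cell 4 was the second highest of all 8 cells, and its correlations with the other probes were 0.47 and 0.30. The array design places the 3 probes on chromosome 5 (5782847 to 5782906 and 5781530 to 5781589, minus strand, and 88493266 to 88493325, plus strand, mm9), whereas RefSeq places Hspa8 on chromosome 9. Whether these probes also read a similar sequence elsewhere in the genome was not tested.

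**Figure D2:**
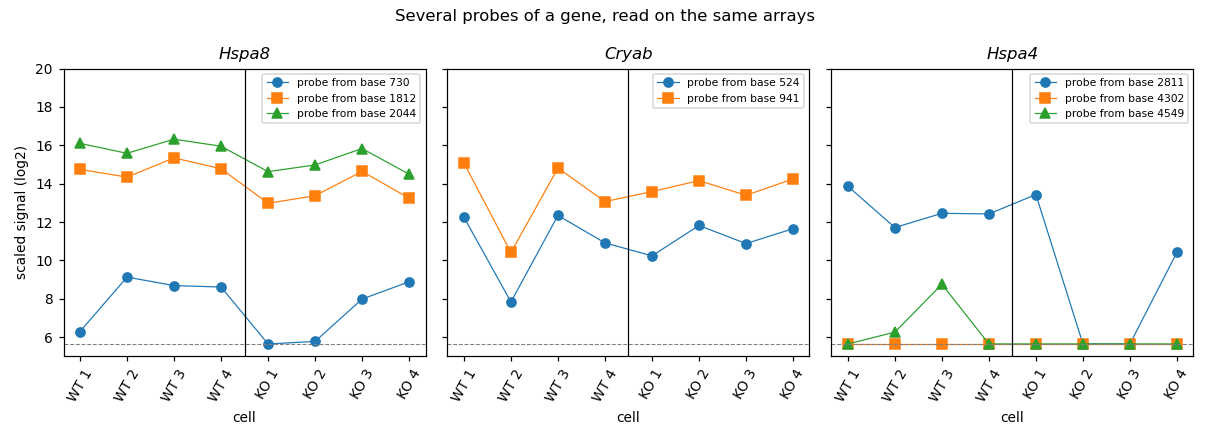
Scaled signal (log2) in each of the 8 cells for the probes of Hspa8, Cryab and Hspa4, which are read on the same arrays; the dashed line is the floor and the vertical line divides WT from KO cells. The Hspa8 probes from bases 1812 and 2044 run in parallel, as do both Cryab probes, while the 3 Hspa4 probes do not.

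Hspa4, the HSP110 chaperone and exchange factor of HSP70, had the largest difference of the 10 genes. Its signals were 14938, 3357, 5611 and 5488 in the WT cells. The KO signals were 11040.4, 50 (undetected), 50 (undetected) and 1372. Detection was thus 4 of 4 WT and 2 of 4 KO cells, and KO cell 1 lay above WT cells 2 to 4. The difference was -3.83, or 14.2-fold (12.61 ± 0.90 against 8.78 ± 3.83). Its size depends on the floor, as it was -5.85 with no floor, and among the values with 1 cell left out the extremes were -5.38 (KO cell 1 removed) and -2.78 (KO cell 2 or 3 removed).

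The other Hspa4 probes did not carry the same information. The probe from base 2811 described above lies on chromosome 11 at 53075085 to 53075144, minus strand (mm9). The one from base 4302 (53073594 to 53073653) was detected in 7 cells but lay under the floor in all 8, and the one from base 4549 (53073347 to 53073406) was detected in only 2 cells, at 76.6 in WT cell 2 and 432 in WT cell 3. With the mean of the 3 probes the difference was -1.59, and no gene of the 10 then passed the 5-fold rule. KO cells 2 and 3, in which Hspa4 was undetected, were also the cells with the smallest share of probes detected on the whole array, 17.2% each. Among measured genes 30.0% were undetected in KO cell 2 and 30.8% in KO cell 3, against 8.43% to 24.7% in the other 6 cells. The part of this in the Hspa4 difference was not tested.

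Cryab (alpha B-crystallin), which binds titin and desmin in muscle, was detected in all 8 cells and varied most among WT cells. Its signals were 34465, 1364, 28793 and 8567 in WT cells and 12323, 18274, 10762 and 19413 in KO cells. The KO cells fell inside the WT range and were closer together, with means of 13.34 ± 2.15 in WT and 13.85 ± 0.42 in KO. The difference of 0.51 became -0.47 without WT cell 2, the lowest cell, and -0.07 with medians. Its 2 probes (chromosome 9, 50561458 to 50561517 and 50564566 to 50564625, plus strand, mm9) correlated at 0.97 with an SD of the log2 ratio of 0.36, and they gave differences of 0.31 and 0.51. The low value of WT cell 2 was present on both.

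Hspb2, a small heat shock protein expressed mainly in muscle, lies next to Cryab on the opposite strand (its probe at chromosome 9, 50559211 to 50559270, minus strand, mm9). Its signals were 18279, 3277, 13732 and 6377 in WT cells and 43720.3, 118.0, 6568 and 23458 in KO cells. KO cell 1 was the highest and KO cell 2 the lowest of the 8, so that the KO range enclosed that of WT. The difference of -0.68 (13.06 ± 1.12 against 12.37 ± 3.83) became 1.15 without KO cell 2 and -1.69 without KO cell 1. In WT cell 2 both neighbours were at their lowest WT value, whereas in KO cell 2 Hspb2 was low and Cryab was not. The correlation between Hspb2 and Cryab over the 8 cells was 0.17.

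Hspb1 (HSP27 in human, HSP25 in mouse) binds actin filaments and unfolded proteins. It ranged over 8.61 log2 units, with 289, 1638, 136 and 6240.0 in WT cells and 39711, 1345, 102 and 4767 in KO cells. KO cell 1 was far above the rest, and KO cells 2 and 4 lay inside the WT range and KO cell 3 just under it. The difference of 1.50 (9.64 ± 2.49 against 11.14 ± 3.60) fell to 0.12 without KO cell 1, and it rose to 2.49 without WT cell 4 and to 2.99 without KO cell 3, values beyond the 5-fold rule. The array design places its probe on chromosome 13 (45173742 to 45173801, minus strand, mm9), while RefSeq places the gene on chromosome 5. As with Hspa8, whether the probe also reads another sequence was not tested. No other probe of the array shared a stretch of 25 bases with any probe of the 10 genes. That comparison covers only probes with probes, on the strand given, and cannot show what else in the genome a probe reads.

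Hspb7, the cardiovascular small heat shock protein, which acts on actin thin filaments in the heart, had the lowest SD pooled over genotypes (2.22) of the 3 genes undetected in some cells. Its signals were 50 (undetected), 815, 79.0 and 1660 in WT cells and 328, 50 (undetected), 818 and 891 in KO cells. Both genotypes held 1 undetected cell, and the difference was 0.29 (8.08 ± 2.48 against 8.37 ± 1.93). It was -0.52 with WT cell 1 removed, 1.20 with KO cell 2 removed and -0.05 under scaling on the 75th percentile. Its probe (chromosome 4, 140980355 to 140980414, plus strand, mm9) was printed as 10 spots per array. In the 6 cells that had a signal the spots differed by an SD of 0.05 to 0.11 (log2), and in the undetected WT cell 1 and KO cell 2 by 0.58 and 0.53. This covers the spread between spots of an array and not that of the amplification.

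**Figure D3:**
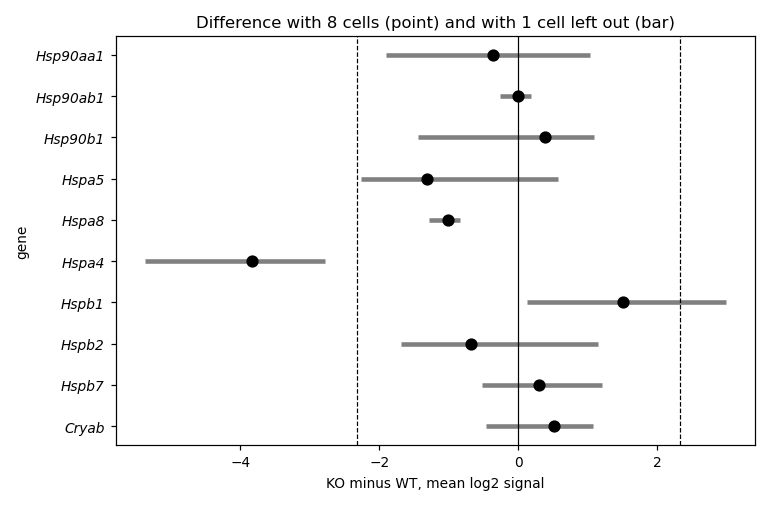
KO minus WT difference of the mean log2 signal for each gene with all 8 cells (point) and the range of the difference when each cell is left out in turn (bar). The dashed lines mark the 5-fold rule (2.32). The bars of Hspa8, Hspa4 and Hspb1 stay on 1 side of 0 and the bars of the other 7 genes reach across it.

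Most of the 10 genes varied more from cell to cell than measured genes did in general. The pooled SD within genotypes was 0.49 for Hsp90ab1 and 0.48 for Hspa8, which 19.6% and 19.4% of measured genes fell below. It was 1.55 for Cryab, near the middle of measured genes (48.8% had a smaller SD). It was 2.22 for Hspb7 and between 2.78 and 3.16 for Hspa4, Hspb2, Hsp90b1, Hspa5, Hspb1 and Hsp90aa1, and 80.6% to 90.0% of measured genes were steadier than each of these 6. The median over the 10 genes was 2.80, beside 1.59 over measured genes and 1.95 over those above the floor in at least 4 cells. Over genes detected in all 8 cells it was 0.93. Of such genes 73.9% were steadier than Cryab and 93% to 96.1% than Hspb2, Hsp90b1, Hspa5 and Hspb1. For Hsp90ab1 and Hspa8 the shares were 22.8% and 22.2%. All these shares count as steadier the genes at the floor in every cell. These were 464 of the measured genes and 85 of those detected in all 8 cells.

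Low values were spread over the cells and were not those of 1 genotype. In all, 74 of the 80 readings, 10 genes in 8 cells, were well above background, and the 6 that were not fell in WT cell 1 (Hsp90aa1 and Hspb7), KO cell 2 (Hsp90aa1, Hspa4 and Hspb7) and KO cell 3 (Hspa4). The mean deviation of the 10 genes from their own 8-cell means was -0.83, -0.02, 0.73 and 1.03 over the WT cells in order. The KO cells gave 0.19, -1.39, -0.50 and 0.79. WT cell 1 and KO cell 2 were thus the lowest of their genotypes, and the genotype means of 0.23 ± 0.83 and -0.23 ± 0.94 overlapped widely. WT cell 3 held the highest value of 5 genes (Hsp90aa1, Hsp90ab1, Hsp90b1, Hspa5 and Hspa8), but Hspb1 and Hspb7 were low in it. KO cell 1 was the highest cell for Hspb1 and Hspb2 and the lowest for Hspa5. WT cell 3 had the largest share of probes detected, 26.0%. The part of overall detection in these values was not tested.

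**Figure D4:**
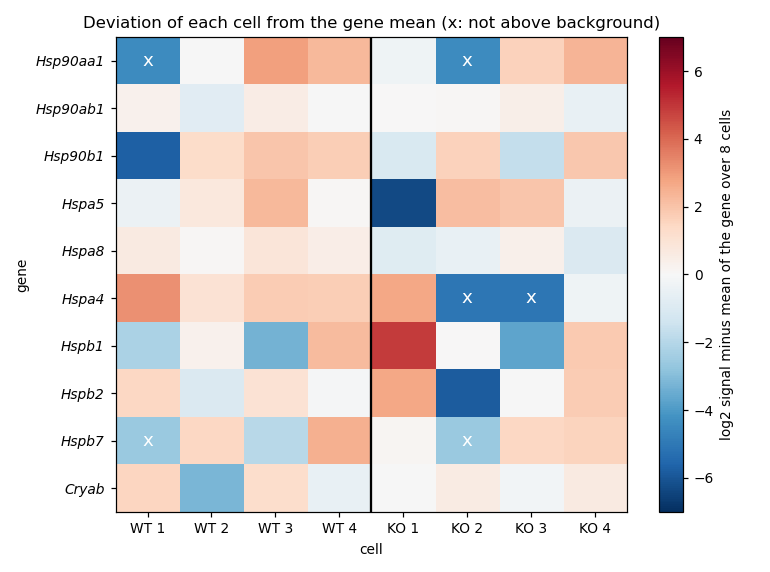
Deviation of the log2 signal of each cell from the mean of the gene over the 8 cells (red above, blue below), with x where the probe was not well above background and a vertical line between WT and KO cells. The deep blue fields are scattered over WT cell 1 and KO cells 1, 2 and 3, and the rows of Hsp90ab1 and Hspa8 are pale throughout.

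The 10 genes did not rise and fall as 1 group across the cells. Among the 45 pairs the median correlation over 8 cells was 0.03, with 5 pairs over 0.5 and 7 under -0.5. The highest were Hsp90ab1 with Cryab (0.71), Hspa4 with Hspb2 (0.69) and Hsp90aa1 with Hspb7 (0.68), and the lowest were Hspa5 with Hspb1 (-0.78) and Hspa8 with Hspb1 (-0.71). The cells share arrays, slides and detection, and several of these values turn on 1 or 2 cells at the floor, so they are given as a description only. Hsp90aa1 and Hsp90ab1, whose proteins are close paralogs, had a correlation of -0.06.

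Partners of these chaperones and genes of related or handling stress were read from 8 lists with 105 genes, of which 103 were on the array and 48 were measured. The KO mean was lower for 28 and higher for 20, and the median difference was -0.89, beside -0.19 for the 10 genes. At least 5-fold lower were 9 (18.8%, beside 10.8% of measured genes and 13.4% of those above the floor), and 3 were 5-fold higher (6.25%, beside 2.84% and 3.68%). Of these only Ptges3 was detected in all 8 cells. The 3 higher genes, Sugt1, Hspb3 and Jund, were each detected in 1 WT cell. A gene can pass as measured through the genotype in which it is high, so these shares are a description only. The cells did not overlap for 2 of the 48 (4.17%, beside 3.71% and 5.48%), Dnajc9 and Jund. Over the listed genes detected in all 8 cells the median was 0.09, beside 0.14 over all such genes. This 0.09 was the value of a gene with signals of only 50 to 78.3 across the cells.

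Of all measured genes 47.8% were lower in KO, and of those above the floor 53.2%. The rest were not all higher, since 464 of the 5171 measured genes lay at the floor in every cell and did not differ. Of 22 J-domain genes 11 were measured, 7 lower and 4 higher in KO, with a median of -1.15 and 2 past the 5-fold rule. Over the 3 of them detected in all 8 cells the median was 0.02. Dnajc9, a J-domain protein and histone chaperone, gave 2187, 2909, 9411 and 4720 in WT cells and 61.3, 50, 50 and 52.2 in KO cells, a difference of -6.27. All KO cells lay at or near the floor and below all WT cells. Dnajc9 is a gene that the study selected on these arrays, so this is not independent evidence. Dnaja1, a cytosolic J-domain partner of HSPA8, gave 11744, 5099, 8459 and 5615 in WT cells and 50, 484, 2952 and 17454 in KO cells, a difference of -2.79. KO cell 4 lay above all WT cells, so the ranges overlapped. The difference no longer passed the 5-fold rule without KO cell 1 (-1.32) or with the mean of all probes (-1.39).

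Of 10 genes for HSP70 exchange factors and partners 6 were measured, 4 lower and 2 higher, with a median of -1.80. The 3 past the 5-fold rule were Hspbp1 (-3.31), Bag2 (-2.40) and St13 (-2.35), and none stayed past it with each cell left out. Hspbp1 was -1.91 without WT cell 3. Bag2 was -1.33 without KO cell 1 or 2 and -2.23 without WT cell 4. St13 was between -1.92 and -1.65 without WT cell 3 or 4 or without KO cell 1, 2 or 4, -1.98 with normexp background correction and -2.10 with quantile normalization. Bag2, an exchange factor that inhibits the CHIP ubiquitin ligase, was detected in 4 WT cells at 1607 to 3451. In KO cells 1 and 2 it was at the floor, and in cells 3 and 4 it was at 5409 and 3254. Hspbp1 lay above the floor in only 3 cells, all WT, and St13 (HIP, which stabilises HSP70 with ADP bound) in 3 WT and 1 KO cell. The 3 genes of this list detected in all 8 cells differed by -1.24, 1.03 and 2.23. Their median of 1.03 was the value of a gene at the floor in WT cell 1 and KO cell 1. Of 11 other HSP70 and HSP110 genes 10 were on the array and 3 were measured, 2 lower and 1 higher, with a median of -1.61 and none past the 5-fold rule. The brightest were Hspa14 at 2.01 and Hsph1, the HSP110 relative of Hspa4, at -1.61, and the other was Hspa2 at -2.13, named here after its value was seen.

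Of 17 co-chaperones of HSP90 12 were measured, 8 lower and 4 higher, with a median of -1.13. At least 5-fold lower were Ahsa1 (-3.50), the activator of the HSP90 ATPase, Ppp5c (-3.38), a phosphatase that binds HSP90, and Ptges3 (-2.66), known as p23, which stabilises HSP90 with clients. Sugt1, an adaptor of HSP90, was higher (2.39). Of these, Ppp5c fell short of the rule without WT cell 1 (-2.20), and Ptges3 without KO cell 1 (-1.51) or without WT cell 2, 3 or 4 (-2.29 to -1.66). Sugt1 was 1.32 without KO cell 3, between 2.03 and 2.19 without KO cell 4 or without WT cell 1, 3 or 4, and 2.19 under scaling on the 75th percentile. Ahsa1 was at -2.32, on the rule itself, without KO cell 2. Ahsa1 gave 9699, 2024, 13658 and 7133 in WT cells and 61.3, 50, 12326 and 3079 in KO cells, so that KO cells 3 and 4 lay within the WT range. Ptges3 was at the floor in WT cell 1 as well as in KO cell 1. The median of the 4 genes detected in all 8 cells was -0.63.

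The other small heat shock proteins and the stress responses were sparse. Of 6 further small heat shock protein genes 3 were measured (median 0.09, and -0.10 under scaling over all probes), and Hspb3, a muscle member of the family, was the 1 past the 5-fold rule, at 2.79 with signal above the floor in 1 WT and 3 KO cells. It was 1.65 without KO cell 2 and 2.15 without KO cell 4. The median of 0.09 was the value of a gene with signals of only 50 to 78.3 across the cells. Of 4 genes for heat shock factors and their binding protein only Hsbp1, the binding protein, was measured (-2.33). It was -1.12 without WT cell 1, between -2.09 and -1.76 without WT cell 4 or without KO cell 1, 2 or 3, -2.06 with normexp and -1.78 with quantile normalization, all short of the 5-fold rule. Of 20 genes of ER folding and the unfolded protein response 9 were measured, 4 lower and 5 higher, with a median of 0.10 (-0.07 under scaling over all probes) and none past the 5-fold rule. Its brightest genes were Pdia6, a disulfide isomerase (-1.08), and Atf4, a transcription factor of the stress response (0.59), both detected in all 8 cells. The median of 0.10 was the value of a gene above the floor in KO cell 2 only, at 65.2. That gene is 1 of the 5 counted as higher.

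Immediate early genes, which can rise while cells are dissociated, were listed as a sign of handling. Of 15 such genes 14 were on the array and 3 were measured, 1 lower and 2 higher in KO. The median of 1.09 was that of a gene with signal well over the floor in KO cell 4 only, and it was -0.05 without that cell and 0.00 with medians of cells. Of the unmeasured genes, Fos, Egr1, Atf3, Dusp1 and Btg2 were undetected in every cell. Jun was detected in 1 WT cell, and Ier2, Ier3, Zfp36, Klf4 and Klf6 in 1 KO cell each. Jund, an AP-1 transcription factor, gave 50, 50, 113 and 50 in WT cells and 6475, 2577, 499 and 2928 in KO cells, a difference of 5.18 with no overlap. Jund is also in the study's own selection from these arrays. Its part in the chaperone values was not tested.

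**Figure D5:**
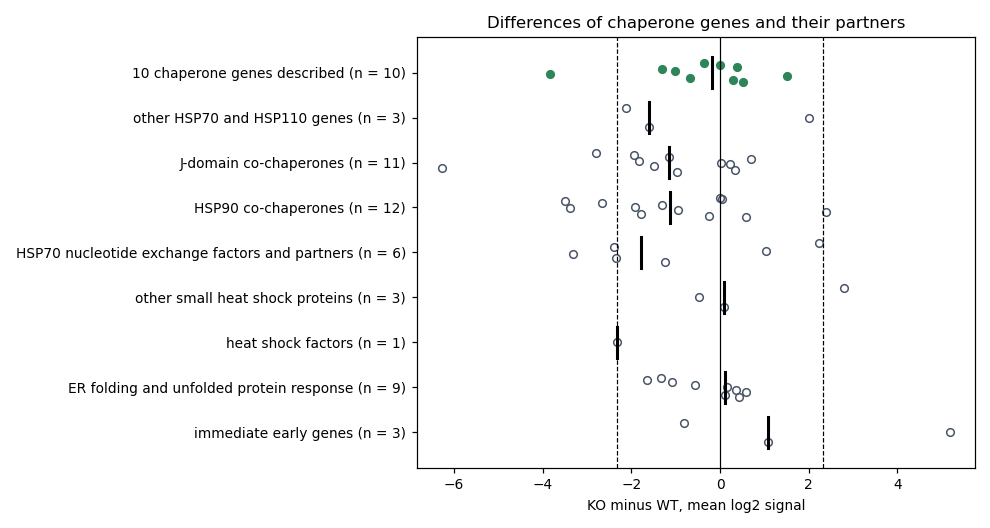
KO minus WT difference of the mean log2 signal for the 10 genes (filled) and for the measured genes of 8 lists of partners and stress responses (open), with the median of each as a vertical bar, n the number of measured genes and dashed lines at the 5-fold rule (2.32). The 10 genes lie around 0 apart from Hspa4 at -3.83, and the co-chaperone lists reach further to the left, with Dnajc9 at -6.27.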

How the data were processed

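Each of the 8 arrays (Agilent SurePrint mouse design, 1 colour, Cy3) held amplified cDNA of a single cell, whose cell type the authors identified by PCR of marker genes. The deposited values were scanner intensity values from Agilent Feature Extraction (version 12.0.2.2, build mm9 per the file headers), which the authors had corrected for background with that software. No spot was saturated (0 on any array). From these, control spots and outlier spots (146 to 220 per array) were left out here, and spots of a probe were averaged as log2. Because a minority of probes was detected, each array was shifted (by -0.76 to 0.68) to a common 50th percentile of the 5304 probes well above background in all 8 cells, and values under 50 were then set to 50. The floor value and the percentile are those of the study's methods, which list the floor before the scaling and name no subset of probes. A gene was read from its probe of highest mean signal. Genes well above background in at least 4 of 8 cells were called measured.

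The 5-fold rule (2.32 on the log2 scale) follows the study. No test was made, since the labels give 1 sample of cells per genotype, and the number of arrays limits the precision. All 10 genes were named, and from each list of partners the genes past the 5-fold rule, up to the 4 with the largest difference, or otherwise the 2 of highest mean signal. The genes and lists were chosen with earlier results of these data known. Alternatives were no floor, scaling over all probes, the 75th percentile, quantile normalization, normexp with an offset of 50 (limma 3.58.1, R 4.3.3), the mean of all probes, medians of cells, outlier spots kept, detection in all 8 cells, another detection flag, a 2-fold rule and each cell left out. Further comparisons between probes of a gene, and the background of genes above the floor, were added after seeing the data. Scripts used Python 3.11.15, numpy 2.4.6 and pandas 2.3.3 and were tested on simulated data. For the 5-fold and overlap rules these held only probes detected in all 8 cells, with no floor and less spread than the 10 genes showed. How the rules behave at low signals was therefore not tested. The RefSeq tables served for gene positions and promoters, and exon annotation of the array build was not used here.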

Additional observations from a re-analysis of the deposited data

Results flagged for a closer look

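The Hsp90b1 signal of WT cell 1 lay far from that of the other WT cells, at 5.68 on the log2 scale (a signal of 51.4) against 12.64 to 13.31 in the other 3. The gap to the nearest cell was 0.91 of the whole range of the group. The 10 genes in 2 genotypes gave 20 groups of 4 cells, in which chance marks about 1 in 20. Without this cell the Hsp90b1 difference was -1.45 in place of 0.38. The same cell lacked Hsp90aa1 and Hspb7, and it held the highest Hspa4 and Cryab signals of the 8 cells.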

How the results depend on the processing

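Of the 10 genes, 1 passed the 5-fold rule (Hspa4). The number was 0 with the mean of all probes and 0 among genes detected in all 8 cells, 4 by the 2-fold rule, and 1 to 2 with 1 cell left out (Hspb1 joined without WT cell 4 or KO cell 3). The median over the 10 genes, -0.19, lay between -0.49 (scaling over all probes) and -0.00 under the other settings and between -0.75 and 0.19 with 1 cell left out. Medians of the lists moved to 0.02 (J-domain genes, from -1.15), 1.03 (exchange factors, from -1.80) and 0.09 (all listed genes, from -0.89) over genes detected in all 8 cells. The medians of 1.03 and 0.09 were each the value of a gene at the floor in some cells. The ER folding list moved between -0.68 (without KO cell 2) and 0.13 with 1 cell left out. Genes whose probes all differed the same way numbered 2 (Cryab and Hspa8), 1 with scaling over all probes and 3 with no floor. Of 352 further values for single genes, 346 moved by less than 1 SD between cells. Values with 1 cell left out could not move that far with 4 cells per genotype, so they are no evidence of stability. The limit also covers changes of sign, as for Hspa5 (-1.32, and 0.57 without KO cell 1). With medians of cells Hspa5 was 0.37, Hspb2 0.41 and Hspb7 1.03. Scaling over all probes moved the median of all measured genes from 0.00 to -0.14, and normexp moved it to 0.12. Readings well above background numbered 74 of 80, and 76 by the positive and significant flag. No paired analysis was possible because WT and KO cells have nothing in common but their numbering, and no test was made. Single-cell amplification and the floor limit what low signals can show.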
